A study of Homo sapiens with 18 samples.

Results

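The 10 genes described here belong to the NRF2 pathway of antioxidant defence: the transcription factors NFE2L2 (which encodes NRF2) and NFE2L1, the NRF2 inhibitor KEAP1, and the targets HMOX1, NQO1, GCLC, GCLM, TXNRD1, SRXN1 and SLC7A11. They were taken by gene ID from the RNA-Seq files, which list 23604 entries in all, and all 10 were found and passed the filter on low counts. RNA was sequenced from MCF10A-ErSrc cells, a human breast epithelial line that carries a v-Src kinase fused to the oestrogen receptor, so that tamoxifen switches the kinase on. Both kinds of cell carry this fusion: NT cells were grown without tamoxifen, and TAM cells are the tamoxifen-transformed ones. Either kind of cell then received DMSO or 1 dose of triptolide (TPL) for 4 h, which gave the groups NT, NT + TPL, TAM and TAM + TPL with 2 biological replicates each. TPL is a plant compound that targets XPB, a helicase within TFIIH. A further data set gives regions occupied by RNA polymerase II (RNAPII) over transcription start sites (TSSs), as 1 list for each of the 4 conditions.

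In unstressed cells KEAP1 binds NRF2 and presents it to a ubiquitin ligase built on CUL3, and the proteasome removes it. Oxidants and electrophiles modify KEAP1, NRF2 accumulates, pairs with a small MAF protein and binds antioxidant response elements near genes for glutathione synthesis, thioredoxin recycling, quinone reduction and haem breakdown. The activity of NRF2 is thus largely set by protein stability, and RNA levels describe only the transcripts of the regulators and their targets. NRF2 protein was not measured in these data.

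The total expected count lay between 7461309 and 8349448 per library. Levels are given as FPKM, which divides the estimated reads of an entry by transcript length and by library total, and differences as log2 fold changes with their standard error (SE) from 1 edgeR fit of the 4 groups over 16948 entries. Calls needed both an adjusted p no higher than 0.001 and a change of 1.2 or more in either direction on the log2 scale, the thresholds of the study's methods, and the words rose and fell mark an adjusted p of at most 0.05 at any size. All values are relative to the rest of the same library, so a rise with TPL cannot be told apart from a smaller loss than that of other mRNAs, nor fewer cells of a type from less RNA per cell. Of 8 basal epithelial markers, 8 reached 1 FPKM in the groups without TPL and 7 with TPL, where TP63 lay between 0.28 and 0.89 FPKM. The basal list summed to 17019 and 18752 FPKM in NT cells (10788 and 13770 with TPL) and 7462 and 7776 in TAM cells (3832 and 4211 with TPL). Of 6 luminal markers, 5 reached 1 FPKM in every group. These include the oestrogen receptor gene ESR1, at 200 and 248 FPKM in NT cells and 95.3 and 68.5 in TAM cells with DMSO. The cells carry a fusion with an oestrogen receptor, and its part in the ESR1 reads was not tested. The luminal list summed to 911 and 972 FPKM in NT cells (805 and 958 with TPL) and 656 and 686 in TAM cells (595 and 598 with TPL). Of 3 endothelial markers VWF stayed at or below 0.04 FPKM and PECAM1 lay between 0.46 and 1.69, of 4 fibroblast markers COL1A1 reached 6.14 and COL3A1 stayed at or below 0.05, and the T cell marker CD3E stayed at or below 0.17. The endothelial list summed to 0.85 and 1.04 FPKM in NT cells (1.41 and 1.73 with TPL) and 0.46 and 0.72 in TAM cells (0.62 and 1.12 with TPL), and the fibroblast list to 3.91 and 3.92 in NT cells (2.25 and 6.23 with TPL) and 0.56 and 1.67 in TAM cells (1.3 and 2.38 with TPL). The immune list summed to 47.4 and 47.8 FPKM in NT cells (78.7 and 90.3 with TPL) and 281 and 301 in TAM cells (410 and 474 with TPL), nearly all of it CD68, while PTPRC, which defines leukocytes, stayed at or below 2.14 FPKM, and the part of other cell types in the results was not tested.

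The antioxidant response element is recognised through a short core, searched here as TGACNNNGC on both strands. The search covered the 250 bases upstream of each TSS in a set of RefSeq promoters (GRCh38.p14). This set holds 12 promoters of 8 of the 10 genes, and HMOX1 and SLC7A11, which it lacks, were not searched. The core was present in 4 promoters of 3 genes, KEAP1, GCLM and TXNRD1, and in 3830 of all 35116 promoters of the set, which is 10.9%. Bases farther away were not searched, so a gene without a match here may still have the element. The 5 matches are shown so that they can be set against the RNAPII lists described further on (4 of them lie within a peak of at least 1 list, and the one at the first TXNRD1 start does not), each 5′ to 3′ in the direction of the gene with 10 bases on either side and the core in capitals. Each promoter was found once, without a mismatch, in hg19, the build of the RNAPII lists. The first KEAP1 match lies at chr19:10613483-10613511 and the second at chr19:10613460-10613488, both before the downstream one of its RefSeq starts. The GCLM match lies at chr1:94375002-94375030, and both genes are on the minus strand. TXNRD1, a gene on the plus strand, has a match at chr12:104609448-104609476 upstream of its first start. Another lies at chr12:104680698-104680726 upstream of a start 71253 bases further on. In the second KEAP1, the GCLM and the downstream TXNRD1 match the core lies on the strand opposite to the gene. The capitals there are its reverse complement.
KEAP1, first match: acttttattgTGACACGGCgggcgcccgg
KEAP1, second match: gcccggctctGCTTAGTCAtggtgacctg
GCLM: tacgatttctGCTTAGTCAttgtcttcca
TXNRD1, first start: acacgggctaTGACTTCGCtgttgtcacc
TXNRD1, downstream start: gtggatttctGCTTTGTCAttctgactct
The second KEAP1 match and the GCLM match hold the same 9 letters. A match says that these letters are present and is not evidence of binding.

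With TPL, the transcripts of the pathway moved in different directions. In NT cells 2 of the 10 genes rose (NQO1 and SLC7A11) and 3 fell (KEAP1, GCLC and SRXN1), and in TAM cells 1 rose (SLC7A11) and 4 fell (NFE2L2, KEAP1, HMOX1 and SRXN1). Of all genes tested, 37.0% passed an adjusted p of 0.05 in NT cells and 33.0% in TAM cells, so that 5 of 10 in each kind of cell lies near these shares. By the stricter rule, met by 3.93% of all genes in NT cells and 2.88% in TAM cells, edgeR called 0 of the 10 genes in NT cells and 1 in TAM cells, SLC7A11. Without adjustment, 6 of the 10 had a p under 0.05 in NT cells and 5 in TAM cells, near the 47.8 and 45.1% of all genes. DESeq2, which called 15.1% of all genes in NT and 13.4% in TAM cells, called 0 of the 10 in NT and 3 in TAM cells, namely KEAP1, HMOX1 and SLC7A11. The FPKM of the TPL and DMSO libraries did not overlap for 6 of the 10 genes in NT cells and for 10 of 10 in TAM cells, against 69.1 and 74.7% of all genes. The median log2 fold change with TPL in NT cells was -0.43 for the 10 genes and 0.09 for all genes tested, and in TAM cells these were -0.23 and 0.05.

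**Figure D1:**
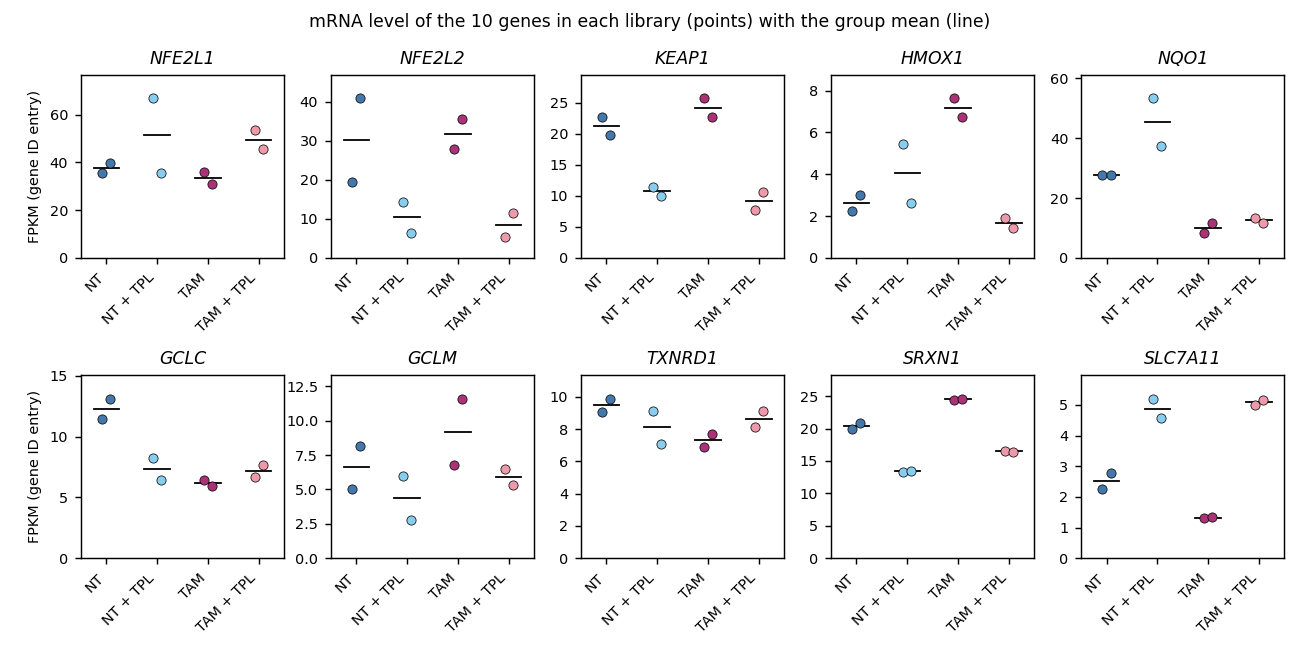
FPKM of the 10 genes in each library (points) and the group mean (line) for NT, NT + TPL, TAM and TAM + TPL, with an axis from 0 for each gene. SLC7A11 was higher in all 4 TPL libraries than in all 4 DMSO libraries, and KEAP1 and SRXN1 were lower, while the NT replicates of NFE2L2 stood at 19.4 and 40.9 FPKM.

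NFE2L2, the gene of NRF2 itself (gene ID 4780, hg19 chr2:178083395-178257484, minus strand), stood at 19.4 and 40.9 FPKM in NT cells (14.4 and 6.40 with TPL) and 28.02 and 35.7 in TAM cells (5.45 and 11.6 with TPL). The TPL libraries were lower in both kinds of cell without overlap, but the replicates of NT, NT + TPL and TAM + TPL lay far apart. The log2 fold change with TPL was -1.54 (SE 0.53, adjusted p = 0.0567) in NT cells and -1.945 (SE 0.53, adjusted p = 0.0310) in TAM cells, where the adjusted p was 0.0531 to 0.163 without any 1 of the TAM and TAM + TPL libraries. These values hold for the gene ID entry, and the files list 3 further RefSeq accessions of NFE2L2 as entries of their own. RSEM, which divides reads among similar transcripts, gave the gene ID entry 55.8 and 98.2% of the NFE2L2 reads in NT cells (100% and 54.9% with TPL) and 85.5 and 92.7% of those in TAM cells (43.99 and 83.7% with TPL). The split was uneven between replicates in every group.

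Summed over its 4 entries, NFE2L2 had 813 and 973 expected counts in NT cells (323 and 254 with TPL) and 788 and 924 in TAM cells (267 and 327 with TPL). The replicates then lay close together, and the highest TPL library, at 327 counts, was far below the lowest DMSO library, at 788. In a fit with the entries of every gene summed, an alternative added after the data were seen, NFE2L2 fell by 1.55 (SE 0.19, adjusted p = 6.35e-05) in NT and by 1.49 (SE 0.18, adjusted p = 9.75e-05) in TAM cells on the log2 scale and was called in both. That fit calls more genes, 12.7% of 15763 in NT (8.39% lower) and 11.2% in TAM cells (7.31% lower). The difference between the TPL effects in TAM and NT cells was then 0.07 on the log2 scale (SE 0.26, adjusted p = 0.946).

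**Figure D2:**
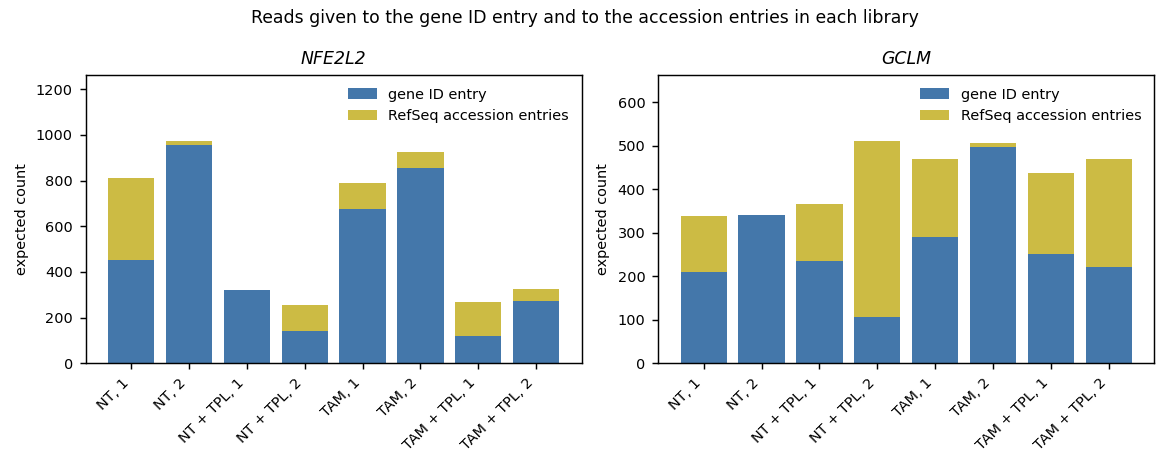
Expected counts of NFE2L2 and GCLM in each of the 8 libraries, as bars that stack the gene ID entry and the RefSeq accession entries. For NFE2L2 the full bars are level within a group (813 and 973 in NT) where the gene ID entries are not, and for GCLM the gene ID entry took between 21.0 and 100% of the counts.

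KEAP1, which marks NRF2 for destruction (gene ID 9817, chr19:10596801-10614234, minus strand), read 22.7 and 19.8 FPKM in NT cells (11.4 and 10.02 with TPL) and 25.7 and 22.7 in TAM cells (7.64 and 10.6 with TPL). All 4 TPL libraries were below all 4 DMSO libraries. KEAP1 fell by 0.9997 on the log2 scale in NT cells (SE 0.19, adjusted p = 0.00743) and by 1.46 in TAM cells (SE 0.19, adjusted p = 0.00212), and it passed an adjusted p of 0.05 in both kinds of cell with any 1 library left out. Transcripts of the factor and of its inhibitor were thus both lower in the TPL libraries.

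NFE2L1, a related factor known for the control of proteasome genes (gene ID 4779, chr17:46125691-46138907, plus strand), gave 35.4 and 39.9 FPKM in NT cells (66.8 and 35.8 with TPL) and 36.0 and 30.9 in TAM cells (53.7 and 45.5 with TPL). It was higher with TPL in TAM cells without overlap, and 1 of the 2 NT + TPL replicates lay at the NT level. The log2 fold change was 0.43 (SE 0.26, adjusted p = 0.234) in NT and 0.52 (SE 0.26, adjusted p = 0.168) in TAM cells. Without NT + TPL replicate 1 the value in NT cells was -0.04, and without replicate 2 it was 0.80 with an adjusted p of 0.0209, so the sign and the call rest on 1 library. That library also read higher than its partner for 9 of the 10 genes, on the scale of the fit.

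HMOX1 encodes haem oxygenase 1, the inducible enzyme of haem breakdown (gene ID 3162, chr22:35776354-35790207, plus strand), and had the fewest reads of the 10 genes, between 19 and 102 a library. Its FPKM were 2.23 and 3.01 in NT cells (5.45 and 2.64 with TPL) and 7.62 and 6.74 in TAM cells (1.92 and 1.45 with TPL). The TAM libraries were the highest of the 8 and the TAM + TPL libraries the lowest, while NT and NT + TPL overlapped. With TPL, HMOX1 fell by 2.13 on the log2 scale in TAM cells (SE 0.42, adjusted p = 0.00976), whereas the value in NT cells was 0.61 (SE 0.41, adjusted p = 0.272). Without TAM + TPL replicate 1 or 2, or TAM replicate 1, the adjusted p in TAM cells was between 0.0512 and 0.0691.

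NQO1, a quinone reductase widely used as a readout of NRF2 (gene ID 1728, chr16:69740899-69760571, minus strand), read 27.6 and 27.7 FPKM in NT cells (53.3 and 37.5 with TPL) and 8.43 and 11.6 in TAM cells (13.3 and 11.8 with TPL). Every TAM and TAM + TPL library lay below every NT and NT + TPL library. TPL raised it by 0.70 on the log2 scale in NT cells (SE 0.21, adjusted p = 0.0371), and in TAM cells the value was 0.28 (SE 0.22, adjusted p = 0.341). With GAPDH as the reference, the value in NT cells was 0.33 with an adjusted p of 0.288, a fit of the 2 groups alone gave 0.0654, and leaving out either NT library, NT + TPL replicate 1 or either TAM + TPL library gave an adjusted p of 0.0665 to 0.151.

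SLC7A11, GCLC and GCLM serve glutathione synthesis. SLC7A11, the transport subunit of the cystine and glutamate exchanger (gene ID 23657, chr4:139085251-139163503, minus strand), stood at 2.26 and 2.78 FPKM in NT cells (5.20 and 4.56 with TPL) and 1.3 and 1.34 in TAM cells (5.01 and 5.17 with TPL). All 4 TPL libraries were above all 4 DMSO libraries, and the TPL libraries of NT and TAM cells overlapped although their DMSO libraries did not. SLC7A11 rose by 0.94 on the log2 scale in NT cells (SE 0.15, adjusted p = 0.00433) and by 1.90 in TAM cells (SE 0.16, adjusted p = 0.000504), or 3.73-fold in TAM cells. With GAPDH as the reference the value in NT cells was 0.57 with an adjusted p of 0.0936. When 1 library was left out, the log2 fold change in TAM cells lay between 1.86 and 1.92. Not every one of these fits kept the call. Each leaves 1 library in a group, so a lost call says nothing about SLC7A11 in particular. They cannot decide whether the call holds.

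GCLC, the catalytic subunit of glutamate-cysteine ligase (gene ID 2729, chr6:53362139-53481768, minus strand), was at 11.4 and 13.1 FPKM in NT cells (8.26 and 6.40 with TPL) and 6.47 and 5.96 in TAM cells (6.68 and 7.68 with TPL). The NT libraries stood above the other 6, and with TPL both libraries were lower in NT cells and higher in TAM cells. In NT cells GCLC fell by 0.75 (SE 0.17, adjusted p = 0.0142), and in TAM cells the log2 fold change was 0.16 (SE 0.17, adjusted p = 0.501). Without NT replicate 2 the adjusted p in NT cells was 0.0858, without NT + TPL replicate 2 it was 0.0573, and in a fit of the 2 groups alone it was 0.0575. The regulatory subunit GCLM (gene ID 2730, chr1:94350755-94375012, minus strand) read 5.02 and 8.19 FPKM in NT cells (5.99 and 2.76 with TPL) and 6.77 and 11.6 in TAM cells (6.52 and 5.30 with TPL), with log2 fold changes of -0.61 (SE 0.42, adjusted p = 0.286) and -0.69 (SE 0.42, adjusted p = 0.239) with TPL. GCLM also has another entry, and the sign of the NT value turned with it: the summed counts were 338 and 340 in NT cells (365 and 510 with TPL) and 469 and 506 in TAM cells (437 and 470 with TPL), and their log2 fold change was 0.46 in NT cells (SE 0.20, adjusted p = 0.0813), against -0.06 for TAM cells (SE 0.20, adjusted p = 0.826). No direction is therefore given for GCLM.

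The last pair acts in the thioredoxin system. TXNRD1, the cytosolic thioredoxin reductase (gene ID 7296, chr12:104609557-104744085, plus strand), varied least among the 10 genes, from 6.90 to 9.89 FPKM over the 8 libraries, with log2 fold changes with TPL of -0.25 (SE 0.16, adjusted p = 0.255) in NT and 0.21 (SE 0.16, adjusted p = 0.365) in TAM cells. SRXN1, which repairs overoxidised peroxiredoxins (gene ID 140809, chr20:627259-633844, minus strand), gave 19.9 and 20.8 FPKM in NT cells (13.4 and 13.4 with TPL) and 24.4 and 24.6 in TAM cells (16.5 and 16.4 with TPL). The replicates of each group were nearly level and the 4 groups did not overlap. SRXN1 fell by 0.61 (SE 0.12, adjusted p = 0.00957) in NT cells and by 0.62 (SE 0.12, adjusted p = 0.00956) in TAM cells on the log2 scale. A fit of the 2 groups alone gave an adjusted p of 0.0627 in NT cells, and the fall was 0.39 in NT and 0.38 in TAM cells with upper quartile scaling (adjusted p of 0.0420 and 0.0477) and 0.97 in NT cells with GAPDH as the reference. Left out 1 at a time, NT replicate 2 gave an adjusted p of 0.0576 in NT cells, and each TAM and TAM + TPL library gave one of at most 0.0638 in TAM cells, past 0.05.

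**Figure D3:**
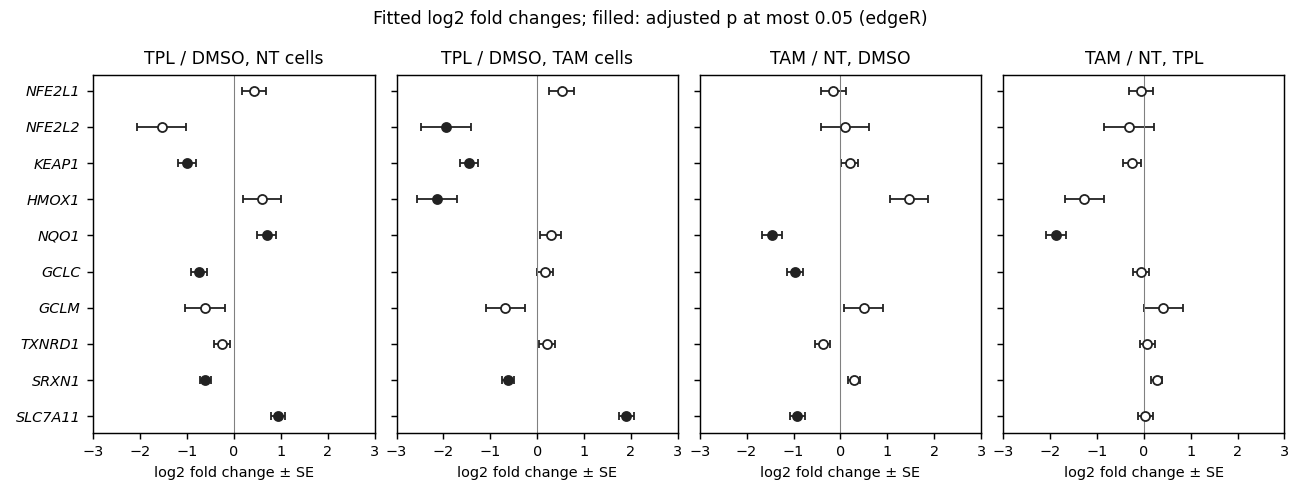
Log2 fold changes (points) with SE (bars) of the 10 genes for the TPL effect in each kind of cell and for the difference of TAM from NT cells under DMSO and under TPL, filled where the adjusted p is at most 0.05. SLC7A11 lay at 0.94 and 1.90 with TPL, and NQO1 at -1.46 and -1.87 for TAM against NT cells.

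TAM cells differ from NT cells by tamoxifen treatment as well as by the transformation it sets off, and these cannot be told apart here. With DMSO, 3 of the 10 genes fell in TAM against NT cells (NQO1, GCLC and SLC7A11) and 0 rose. Of all genes tested, 6.84% passed this threshold in either direction, and 3.39% of all genes tested passed it as lower. NQO1 was 2.75-fold lower in TAM cells (log2 fold change -1.46, SE 0.22, adjusted p = 0.00992), GCLC fell by 0.96 (SE 0.17, adjusted p = 0.0195) and SLC7A11 by 0.92 (SE 0.16, adjusted p = 0.0179) on the log2 scale. HMOX1 lay the other way at 1.47 (SE 0.41, adjusted p = 0.0906), with both TAM libraries above both NT libraries, and passed 0.05 with DESeq2 (adjusted p = 0.0203), with entries summed (adjusted p = 0.0232), with at least 10 counts in every library (adjusted p = 0.0255) and in a fit of the 2 groups alone (adjusted p = 0.0365). Each of the 3 falls missed 0.05 with certain libraries left out: NQO1 without either NT library or TAM replicate 1 (adjusted p of up to 0.0764), GCLC without any 1 of 6 libraries (up to 0.157) and SLC7A11 without NT replicate 2 or any TAM or TAM + TPL library (up to 0.130). SLC7A11 also missed it in a fit of the 2 groups alone (adjusted p = 0.0525) and with limma at either pseudocount (up to 0.0988). The edgeR rule called 0 of the 10 genes (0.655% of all genes were called), and 5 of the 10 had an unadjusted p under 0.05, against 19.9% of all genes. DESeq2 called 1, NQO1, and 4.40% of all genes. With GAPDH as the reference, which moves the median of all genes from -0.03 to -0.50 on the log2 scale, the values of NFE2L2, KEAP1, GCLM and SRXN1 turn from above to below 0.

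With TPL in both kinds of cell, 1 of the 10 genes differed between TAM and NT cells at an adjusted p of 0.05, against 7.03% of all genes: NQO1, lower by 1.87 on the log2 scale (SE 0.22, adjusted p = 0.00393). Without TAM + TPL replicate 2 its adjusted p was 0.0591. HMOX1 had a log2 fold change of -1.27 here (SE 0.42, adjusted p = 0.134). SLC7A11 lay at 0.04 (SE 0.15, adjusted p = 0.935) and GCLC at -0.05 (SE 0.17, adjusted p = 0.915). The edgeR rule called 0 of the 10 (0.596% of all genes were called), and 2 of the 10 had an unadjusted p under 0.05, near the 21.3% of all genes. DESeq2 called NQO1 and 3.96% of all genes. Groups did not overlap for 6 of the 10 genes with DMSO and for 3 with TPL, against 52.7 and 47.6% of all genes.

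The difference between the TPL effects in TAM and NT cells was tested as an interaction, and 0 of the 10 genes passed an adjusted p of 0.05, against 0.165% of all genes. Without adjustment, 3 of the 10 had a p under 0.05, against 10.6% of all genes. These were HMOX1 with a difference of -2.74 on the log2 scale (SE 0.58, adjusted p = 0.184), SLC7A11 with 0.96 (SE 0.22, adjusted p = 0.207) and GCLC with 0.91 (SE 0.24, adjusted p = 0.268). DESeq2, which put 3.06% of all genes past 0.05, did so for all 3, at adjusted p of 0.00588, 0.0172 and 0.0406 in that order. HMOX1 also passed with the entries of each gene summed (adjusted p = 0.0422), a fit that put 0.850% of 15763 genes past 0.05. It passed with at least 10 counts in every library as well (adjusted p = 0.0494), where 48 of 12502 genes passed as higher and 38 as lower. GCLC and SLC7A11 passed in DESeq2 alone. With any 1 library left out, the adjusted p of these 3 genes stayed at or above 0.0881.

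RNAPII lists give the extent of regions occupied over a TSS and no height, each was made for 1 condition, with no replicate to compare, and peak names carry the label of the first replicate. The TSS of each gene is that of its canonical transcript in GENCODE release 44 placed on hg19. A peak covered it for 8 of the 10 genes in NT cells (7 with TPL) and 8 in TAM cells (5 with TPL), against 67.2% (53.9% with TPL) and 59.4% (52.8% with TPL) of the 13436 protein-coding genes tested for RNA. NFE2L1, NFE2L2, GCLC, GCLM and SRXN1 had a peak in all 4 lists, as did 44.5% of those genes. NFE2L2 kept a broad peak of 2139 bases in NT cells (1776 with TPL) and 1680 in TAM cells (1749 with TPL), although its summed RNA fell with TPL. HMOX1 and TXNRD1 had none over this TSS in any list, as had 29.0% of those genes. HMOX1 had no peak over any of its 5 annotated TSSs in any list, and the nearest lay between 18769 and 81123 bases away, although its RNA was read in every library.

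**Figure D4:**
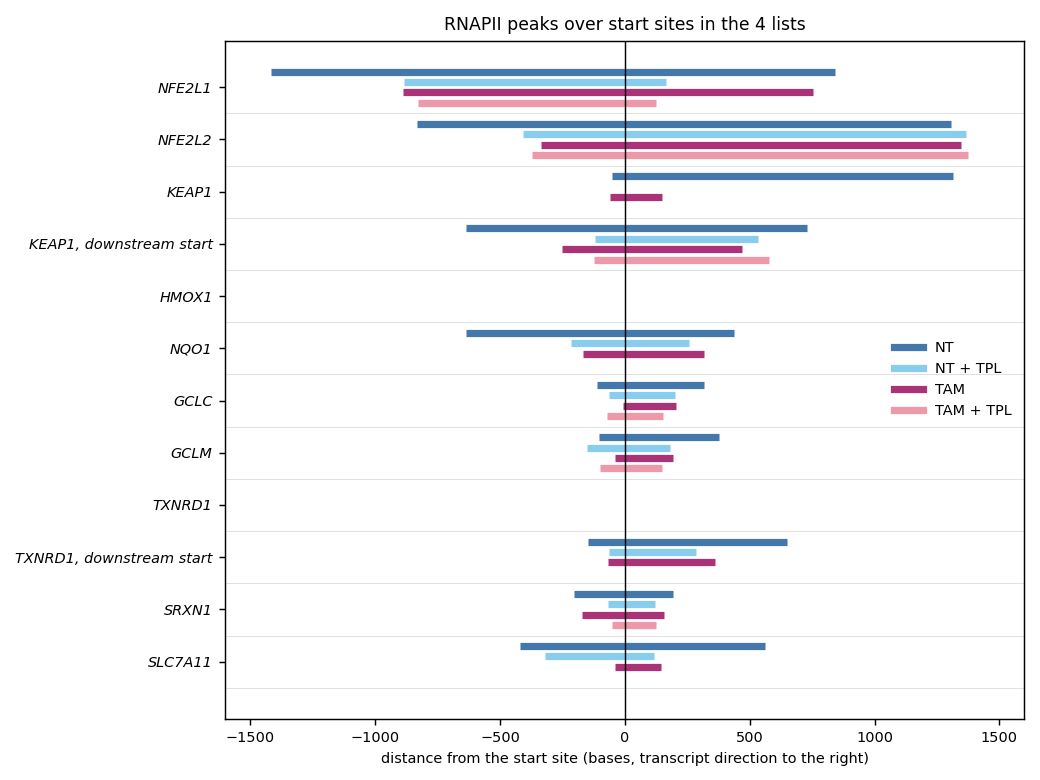
RNAPII peaks over the canonical TSS of each gene, and over a downstream start of KEAP1 and TXNRD1, as bars from the first to the last base of the peak in the NT, NT + TPL, TAM and TAM + TPL lists. The horizontal axis is the distance from the TSS in bases; HMOX1 and the first TXNRD1 start have no bar, and SLC7A11 and NQO1 lack one in TAM + TPL.

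From TAM to TAM + TPL, peaks over the TSS of KEAP1, NQO1 and SLC7A11 were no longer listed, 3 of the 8 listed in TAM, against 18.9% of genes with a TAM peak, and from NT to NT + TPL 1 of 8 was no longer listed, KEAP1, against 22.7%. SLC7A11 was the gene that rose with TPL in TAM cells, and its nearest TAM + TPL peak was 773010 bases from the TSS. In NT cells, where SLC7A11 also rose, its peak narrowed from 986 to 437 bases. The 7 genes with a peak in both NT and NT + TPL all had a narrower one with TPL, at 0.438 to 0.83 of the NT width, where the median ratio of all genes was 0.878 and 62.8% were narrower. The TAM list holds narrower and split peaks throughout (41.5% of its peaks carry a letter that marks parts of a region, 0% in the other lists) and its peak names carry another cutoff, so widths and absences between TAM and the other lists cannot be told apart from this difference.

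KEAP1 has a second RefSeq start 585 bases downstream, which holds both core matches printed above in its upstream region. The canonical start lay in a peak in NT and TAM and not with TPL, and the downstream start lay in a peak in all 4 lists, of 1368 bases in NT cells (655 with TPL) and 723 in TAM cells (705 with TPL). With TPL the listed region thus began 120 bases upstream of the downstream start in NT cells and slightly farther in TAM cells, which includes both matches. For TXNRD1 the first start had no peak in any list, and the downstream one had a peak of 798 bases in NT, 349 in NT + TPL and 428 in TAM and none in TAM + TPL. The match upstream of it, 102 to 94 bases from the start, lay within the NT peak, which reached 149 bases upstream, and outside the NT + TPL and TAM peaks, which reached 64 and 68 bases. The GCLM match, 34 to 26 bases upstream, lay within the peak in all 4 lists, whose upstream ends were 102, 151, 40 and 99 bases from the start in the NT, NT + TPL, TAM and TAM + TPL lists. Counting any annotated TSS, 9, 9, 9 and 6 of the 10 genes had a peak in these lists. The share of all genes was not counted by that rule, so these counts only describe the 10 genes.

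The pathway holds many more genes than these 10, and 78 others were followed in 8 lists, of which 75 passed the filter on low counts. With TPL in NT cells 38 of the 75 rose and 5 fell, against 17.2 and 19.8% of all genes, and their median log2 fold change was 0.54. In TAM cells 18 rose and 7 fell, against 14.3 and 18.6%, with a median of 0.17. Counted among the rises are GGT1 in both kinds of cell and CBR3 in NT cells, which passed the filter only through the TPL libraries. These genes are shorter than most, with a median transcript length of 1721 bases against 2871 for all genes tested, and across all genes the log2 fold change with TPL had a Spearman's rho with length of -0.16 in NT and -0.05 in TAM cells; the part of length in the counts was not tested. Of all genes, 2919 rose and 3355 fell in NT cells, against 1358 and 4381 with GAPDH as the reference and 4088 and 2625 with upper quartile scaling. Of the 75 genes, 21 rose in NT cells in a fit of the 2 groups alone, where 1768 of all 15735 genes did. With GAPDH as the reference 14 rose and 8 fell in NT cells. In TAM cells 10 rose with GAPDH and 31 with upper quartile scaling, against 1626 and 3613 of all 16948 genes. Left out 1 at a time, NT replicates 1 and 2 gave the listed genes a median log2 fold change of 0.60 and 0.45 in NT cells. In TAM cells the median was 0.13 without TAM replicate 1 and 0.27 without replicate 2. Without TAM + TPL replicate 1 it was 0.21, and without replicate 2 it was 0.17. Such fits leave 1 library in a group, so no count of rises is taken from them.

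**Figure D5:**
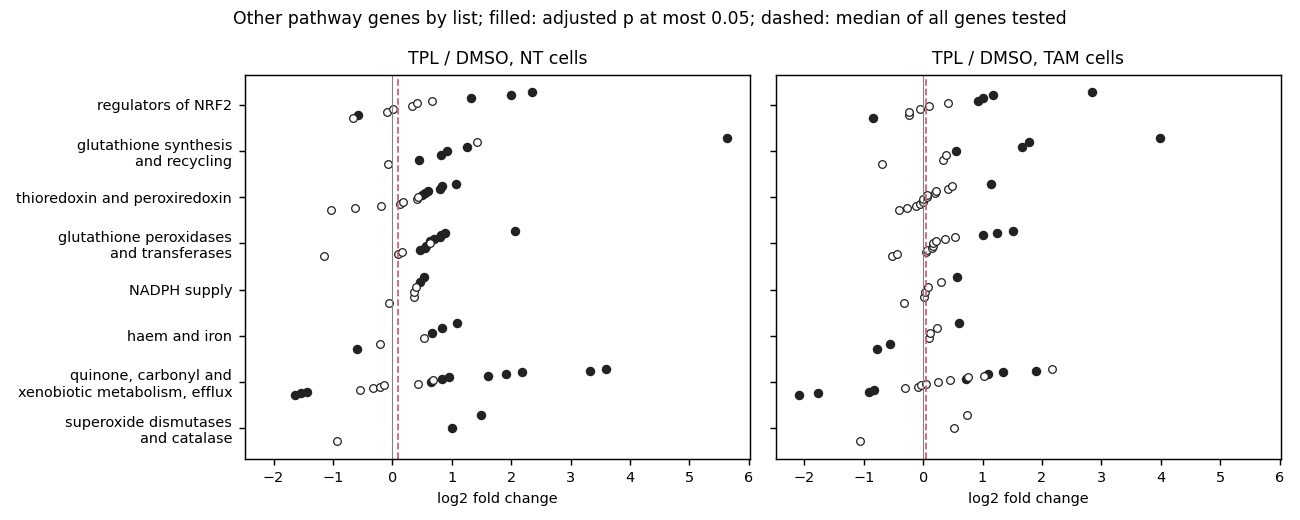
Log2 fold changes with TPL in NT (left) and TAM cells (right) of 75 further pathway genes in 8 lists, 1 point a gene, filled where the adjusted p is at most 0.05, with a dashed line at the median of all genes tested (0.09 and 0.05). In NT cells 38 filled points lie above 0 and 5 below. Those above include GGT1 and CBR3, which passed the filter on low counts only through the TPL libraries.

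Among 10 regulators of NRF2, 3 rose and 1 fell with TPL in NT cells, and 4 rose and 1 fell in TAM cells. NFE2L3, another member of the NFE2L family, read 1.54 and 1.25 FPKM in NT cells (8.22 and 6.19 with TPL) and 2.29 and 2.07 in TAM cells (16.5 and 15.8 with TPL), and was called in NT (log2 fold change 2.35, SE 0.20, adjusted p = 0.000472) and also among TAM cells (2.84, SE 0.20, adjusted p = 0.000340). It thus moved against NFE2L2. SQSTM1, an autophagy receptor that binds KEAP1, rose from 67.4 and 62.7 to 269 and 254 FPKM in NT cells and was called there (log2 fold change 2.001, SE 0.12, adjusted p = 0.000197). In TAM cells it rose as well, from 103 and 103 to 205 and 199 FPKM, and was not called (0.92, SE 0.11, adjusted p = 0.00182). CUL3, the scaffold of the ligase that KEAP1 serves, fell by 0.57 (SE 0.15, adjusted p = 0.0242) in NT and by 0.84 (SE 0.15, adjusted p = 0.00702) in TAM cells on the log2 scale, in the direction of KEAP1. Its adjusted p passed 0.05 upwards in NT cells without either NT library or NT + TPL replicate 2 (up to 0.108) and in TAM cells without TAM + TPL replicate 1 (0.0630). In NT cells the fall of CUL3 was 0.35 with upper quartile scaling (adjusted p = 0.0954), and in a fit of the 2 groups alone the adjusted p was 0.0788.

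Of 7 other genes of glutathione synthesis and recycling, 5 rose in NT and 4 in TAM cells with TPL, GGT1 among them in both, and 0 fell in either. GGT1, which cleaves extracellular glutathione, read 0.17 and 0.15 FPKM in NT cells (6.83 and 9.05 with TPL) and 0.46 and 0.54 in TAM cells (8.90 and 7.60 with TPL). It had 3.2 and 3 counts in NT and 9.22 and 10.76 in TAM cells and passed the filter on low counts only through the TPL libraries, as did CBR3 of the xenobiotic list, so that their rises, GGT1 in both kinds of cell and CBR3 in NT cells, are a description. SLC1A5, a glutamine transporter, rose from 129 and 140 to 338 and 330 FPKM in NT cells and was called there (log2 fold change 1.25, SE 0.13, adjusted p = 0.000839), as it was in TAM cells, with a rise of 1.66 (SE 0.13, adjusted p = 0.000419). CHAC1, which breaks glutathione down, rose by 1.79 in TAM cells (SE 0.48, adjusted p = 0.0288), with an adjusted p of 0.0526 with GAPDH as the reference and of 0.0513 to 0.165 without any 1 of the TAM and TAM + TPL libraries. SLC3A2, the partner chain of SLC7A11, fell in TAM against NT cells by 1.32 with DMSO (SE 0.12, adjusted p = 0.00145) and by 1.22 with TPL (SE 0.12, adjusted p = 0.00210), so that both chains of the exchanger were lower in TAM cells with DMSO.

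The 13 other thioredoxin and peroxiredoxin genes gave 6 rises in NT and 1 in TAM cells, led by SESN2, a stress-induced sestrin, at 1.07 (SE 0.18, adjusted p = 0.00516) and 1.14 (SE 0.18, adjusted p = 0.00427), the former 0.69 with an adjusted p of 0.0795 with GAPDH as the reference. Of 13 glutathione peroxidases and transferases tested, 9 rose in NT and 3 in TAM cells with TPL, while 4 were lower in TAM than in NT cells under DMSO, and 6 under TPL, past the test. GPX4, which reduces lipid peroxides, read 286 and 250 FPKM in NT cells (437 and 559 with TPL) and 102 and 122 in TAM cells (171 and 164 with TPL), and its log2 fold change for TAM against NT cells was -1.24 with DMSO (SE 0.19, adjusted p = 0.0108) and -1.60 with TPL (SE 0.19, adjusted p = 0.00421). The 6 genes of NADPH supply gave 2 rises in NT and 1 in TAM cells with TPL. TKT, a transketolase of the pentose phosphate pathway, fell by 0.79 in TAM against NT cells with DMSO (SE 0.15, adjusted p = 0.0234) on the log2 scale. It missed 0.05 without any 1 of the NT, TAM and TAM + TPL libraries (adjusted p of up to 0.180), and GPX4 missed it with DMSO without NT replicate 1 or either TAM library (up to 0.0972) and with TPL without TAM + TPL replicate 2 (0.0560).

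Of 6 other haem and iron genes, 3 rose and 1 fell in NT cells and 1 rose and 2 fell in TAM cells with TPL. HMOX2, the constitutive haem oxygenase, fell by 0.60 in NT (SE 0.15, adjusted p = 0.0224) and by 0.56 in TAM cells (SE 0.15, adjusted p = 0.0312) on the log2 scale. FTH1, the ferritin heavy chain, rose in TAM against NT cells from 2801 and 2327 to 7315 and 8363 FPKM with DMSO (log2 fold change 1.63, SE 0.14, adjusted p = 0.00125), against the direction of NQO1 and GCLC. BLVRB, a biliverdin reductase, rose by 1.09 with TPL in NT cells (SE 0.16, adjusted p = 0.00269) and fell by 0.90 in TAM against NT cells with DMSO (SE 0.16, adjusted p = 0.0193). The latter fall missed 0.05 without any 1 of the NT, TAM and TAM + TPL libraries (up to 0.145), and those of HMOX2 without either NT library or NT + TPL replicate 1 in NT cells (up to 0.0960) and without any 1 library but those of NT + TPL in TAM cells (up to 0.132). With upper quartile scaling HMOX2 lay at -0.385 in NT (adjusted p = 0.0947) and -0.32 in TAM cells (adjusted p = 0.154), and a fit of the 2 groups alone gave 0.0881 in NT cells.

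In the list of quinone, carbonyl and xenobiotic metabolism and efflux, 8 of 17 other genes rose and 3 fell with TPL in NT cells, and 4 rose and 4 fell in TAM cells. EPHX1, an epoxide hydrolase, read 64.7 and 59.9 FPKM in NT cells (243 and 231 with TPL) and 33.1 and 27.3 in TAM cells (126 and 107 with TPL), with called rises of 1.91 (SE 0.15, adjusted p = 0.000374) in NT and 1.89 (SE 0.15, adjusted p = 0.000459) in TAM cells. CBR1, a carbonyl reductase, went the other way and was called in both, falling by 1.64 (SE 0.18, adjusted p = 0.000966) in NT and by 2.10 (SE 0.18, adjusted p = 0.000547) in TAM cells. With DMSO, the efflux pump ABCC2 fell by 2.65 in TAM against NT cells (SE 0.31, adjusted p = 0.00376) on the log2 scale, and its adjusted p was 0.0505 without TAM replicate 1. SOD1 and SOD2, the cytosolic and mitochondrial superoxide dismutases, rose in NT cells with TPL by 0.997 (SE 0.17, adjusted p = 0.00553) and 1.49 (SE 0.25, adjusted p = 0.00484), and neither they nor CAT passed 0.05 in TAM cells. With GAPDH as the reference SOD1 lay at 0.64 in NT cells (adjusted p = 0.0763). Over all 75 genes, TAM against NT cells gave 4 rises and 13 falls with DMSO and 3 rises and 21 falls with TPL, against 3.46 and 3.39% and 2.83 and 4.21% of all genes. With GAPDH as the reference the counts with DMSO were 1 and 22, against 321 and 1687 of all 16948 genes. Left out 1 at a time, NT replicates 1 and 2 gave the listed genes a median log2 fold change of -0.12 and -0.13 with DMSO. The median was -0.09 without TAM replicate 1 and -0.15 without replicate 2. With TPL it was -0.38 without TAM + TPL replicate 1 and -0.45 without replicate 2. Since 1 library is then left in a group, no counts are taken from these fits. GGT1, GSTM2, GPX4, FTH1 and FTL have near-identical relatives or pseudogenes, so their reads are uncertain in part.

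The genes whose level was most like the NFE2L2 gene ID entry over the 8 libraries, among 14135 with a mean of at least 1 FPKM, were MATCAP2 (Pearson's r of 0.987 on log2(FPKM + 1)), STK17A (0.981) and UGP2 (0.981). All 3 were lower in every TPL library than in every DMSO library, as MATCAP2 shows with 2.88 and 4.93 FPKM in NT cells (2.10 and 1.3 with TPL) and 3.65 and 3.76 in TAM cells (1.31 and 1.95 with TPL). The 8 points share the uneven split of NFE2L2 reads described above.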

How the data were processed

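RNA-Seq libraries were made from poly-A RNA of NT and TAM cells with DMSO or TPL (2 biological replicates per group), and per the labels and the study's methods the authors aligned reads with Bowtie2 and estimated abundance with RSEM. The deposited tables hold expected counts and FPKM per gene ID or RefSeq accession. Of 23604 entries, 21077 matched a gene by ID, 2384 by accession and 143 not at all. The deposited RNAPII peak lists (hg19, MACS 1.4.2 per the labels) hold positions over TSSs and no score.

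After rounding, the expected counts entered edgeR 4.0.16 (quasi-likelihood, TMM scaling, filterByExpr, Benjamini-Hochberg adjustment over all 16948 entries kept) in R 4.3.3, in 1 fit of the 4 groups without a block, with the script tested on simulated data. DESeq2 1.42.0, limma 3.58.1 on log2(FPKM + 1) and log2(FPKM + 0.1), other scalings and filters, a replicate block and each library left out were alternatives. Entries of a gene were also summed, and the block was also crossed, both chosen after the data were seen. Further pathway genes were named as the 2 largest changes in each direction per list and comparison among those past an adjusted p of 0.05 whose groups did not overlap, with a mean of at least 1 FPKM, and 1 gene that this rule names is not reported here. The members and lists were chosen with earlier results of these data known. Depth was 7461309 to 8349448 expected counts a library, and the biological coefficient of variation was 0.315. Replicate numbers were not taken to pair samples, since correlations of replicate differences between groups lay between -0.135 and 0.0501. RNAPII replicates and inputs were not analysed here.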

Additional observations from a re-analysis of the deposited data

Results flagged for a closer look

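GCLC was set apart because both TPL libraries were lower than both DMSO libraries in NT cells and higher in TAM cells. The difference between the TPL effects in TAM and NT cells was 0.91 on the log2 scale (SE 0.24), with an adjusted p of 0.268 in edgeR and 0.0406 in DESeq2, and the TPL effect in TAM cells by itself did not pass the test (log2 fold change 0.16, adjusted p = 0.501 in edgeR).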

How the results depend on the processing

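Of the 10 genes, edgeR called 0, 1, 0 and 0 for the TPL effect in NT and TAM cells and for the TAM to NT difference under DMSO and under TPL, in this order. At an adjusted p of 0.05 with no fold limit these counts were 5, 5, 3 and 1, against 37.0, 33.0, 6.84 and 7.03% of all genes. With the entries of a gene summed they were 1, 3, 1 and 1, against 12.7, 11.2, 2.94 and 2.59%. DESeq2 gave 0, 3, 1 and 1, against 15.1, 13.4, 4.40 and 3.96%. With at least 10 counts in every library TPL in TAM cells gave 2, where 378 of 12502 genes were called higher and 871 lower. TAM against NT cells with TPL gave 1 in that fit, where 111 were called higher and 161 lower. TPL in TAM cells gave 0 with GAPDH as the reference (77 higher and 207 lower of all 16948 genes). It also gave 0 in a fit of the 2 groups alone (76 and 201 of 15935). Limma gave 0 at either pseudocount, with 237 and 439 of 16948 genes at 1 and 175 and 358 at 0.1. The interaction gave 0 throughout. With only peaks at least as wide as the list median, 5, 2, 3 and 2 genes had an RNAPII peak in the lists NT, NT with TPL, TAM and TAM with TPL, in place of 8, 7, 8 and 5. The share of all genes with such wide peaks was not counted.

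Labels number the replicates 1 and 2 in each group, but replicate differences did not go together between groups (r of -0.135 for NT and NT + TPL, -0.0662 to 0.0501 for the other pairs). A replicate block moved NQO1 with TPL in NT cells to an adjusted p of 0.0632. In TAM cells that fit called 0 of all 16948 genes tested with TPL. The lost call of SLC7A11 therefore says nothing about this gene in particular. With the NT + TPL numbers crossed in the block, 34 of all genes were called higher and 64 lower in NT cells. None of the pathway members described first was among them.

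Signs turned for values that had not passed the test. With entries summed these were GCLM with TPL in NT cells (0.46), NFE2L2 for TAM against NT cells with DMSO (-0.091), GCLM for the same with TPL (-0.022) and the interaction of NFE2L2 (0.068). With GAPDH as the reference these were, for TAM against NT cells with DMSO, NFE2L2 (-0.42), KEAP1 (-0.26), GCLM (-0.0067) and SRXN1 (-0.19), with TPL TXNRD1 (-0.14) and SLC7A11 (-0.19), and for the interaction GCLM (0.21) and SRXN1 (0.23). With limma, NFE2L1 for TAM against NT cells with TPL was 0.014 and 0.016, and the interactions were 0.013 and 0.058 for GCLM and 0.022 and 0.029 for SRXN1. Upper quartile scaling gave 0.0041 for GCLC in TAM against NT cells with TPL and 0.0071 for the SRXN1 interaction, which was 0.028 by library size. With 1 library left out, NFE2L1 ran from -0.043 to 0.80 with TPL in NT cells, and NFE2L2 from -0.35 to 0.73 for TAM against NT cells with DMSO. For the same with TPL, NFE2L1 ran from -0.40 to 0.45, NFE2L2 from -0.93 to 0.40, GCLC from -0.17 to 0.14 and TXNRD1 from -0.044 to 0.27. The interactions of NFE2L1, NFE2L2, GCLM and SRXN1 ran from -0.27 to 0.57, -1.05 to 0.27, -0.51 to 0.55 and -0.044 to 0.023. The causes were not tested. With 2 libraries a group and few reads for HMOX1, a value that misses the threshold does not show that levels were equal.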
